A study of Mus musculus with 12 samples.

Results

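The animals described are the 6 vehicle mice of a study of 12, taken as the arrays whose titles mark them as controls. They are 3 males and 3 females, 3 weeks old, whose mothers received 0.01% ethanol by mouth each day from the start of pregnancy, and the pups were exposed to it before birth and through milk. The other 6 animals, from mothers given bisphenol A in that vehicle, are not compared here. Each treatment used 3 pregnant mice, each of which gave 1 male and 1 female, so the 6 animals come from 3 litters, and which pups were littermates is not given by the sample names. No source used here names the strain. Each array holds the cortex RNA of 1 animal, and the animals are called male 1 to male 3 and female 1 to female 3 after their replicate numbers.

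The cerebral cortex is built mainly of glutamatergic projection neurons in layers and of GABAergic interneurons, with astrocytes, oligodendrocytes, microglia and the cells of blood vessels among them. At weaning age neuron production in the cortex is over, myelin is still being laid down and synapses are being formed and pruned. A dissected cortex can also carry pieces of neighbouring tissue, such as choroid plexus, meninges, striatum or the base of the olfactory bulb. In such bulk RNA, fewer cells of a type and less RNA per cell cannot be told apart.

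A level is the log2 processed signal of a gene's probe minus the 75th percentile of its array, so that 0 is the signal of a spot at that percentile and 1 unit is a doubling. A gene was kept where a probe was well above background on all 6 arrays, which left 23789 genes, 16646 of them with a current symbol. Their levels ran from −5.44 to 9.52 with a median of −0.35. Brightness depends on the probe as well as on the RNA, so an order of genes is an order of signals. The percentage of spots well above background was 73.5% on the array of female 1 and between 64.7% and 67.1% on the other 5. The authors' deposited value column of female 1 also correlated with its scanner values at only 0.224, against 0.972 or more for the others. Across genes, however, its scanner values correlated with the other control arrays at 0.994 to 0.996, like any of them, and results without this animal are given where they differ. All 6 arrays lay on 1 slide.

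The brightest genes were not, for the most part, well-known cortical genes, and the probe sequences show what they share. Of the 30 current-symbol genes with the highest signal, 19 were read by a probe holding a 12-base stretch that recurs in the probes of at least 8 different genes, and so were 67 of the first 100 genes. On the whole array 4418 of 55681 probes (7.93%) hold such a stretch. Measured probes with one had a median level of 0.74 and those without had −1.12. The stretch that recurs in most of the first 100 genes is AAGAAGAAGAAG, a simple repeat present in the probes of 68 genes and in 29 of the first 100. Next come CTGAAGACAGCT, in 11 of the first 100, AATACCATCAAT in 6 and ACAGCCAGGGCT in 6.

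Shown here are 30 bases of the 60-base probes of bright genes, 5′ to 3′ as deposited, with 1 shared 12-base stretch of each in capitals. Apart from Pigr, they are chosen because probes filed under different genes carry nearly the same letters. Pigr is shown for its simple repeat. Whether the genes of a pair are related by descent was not tested.
F10: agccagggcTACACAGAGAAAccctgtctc
Elk1: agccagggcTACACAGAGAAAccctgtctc
Pbld1: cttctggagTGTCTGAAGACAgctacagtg
Phyhd1: tctctggtaTGTCTGAAGACAgctacagtg
Gapdh: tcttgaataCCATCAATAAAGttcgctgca
Gm10293: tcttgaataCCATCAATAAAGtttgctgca
Pigr: gagaaggagAAGAAGAAGAAGaagaagaag
The windows of F10, a coagulation factor, and Elk1, a transcription factor, were identical over 30 of 30 bases, although the files place the probes at chr8:13056119-13056178 on the plus strand and chrX:20510521-20510580 on the minus strand (build mm9). Those of Pbld1 (chr10:62540215-62540274, plus strand) and Phyhd1 (chr2:30132662-30132721, plus strand) agreed at 26 of 30 bases. The windows of Gapdh, a glycolytic enzyme (chr6:125111869-125111928, minus strand), and Gm10293 (chr3:52417889-52417948, plus strand) agreed at 29 of 30. The probe of Pigr, an epithelial immunoglobulin receptor, lies at chr14:70241922-70241981 on the minus strand. Exon and UTR positions on mm9 were not used here.

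Other probes of the same genes gave far lower signals. F10 stood at 9.49 ± 0.08 (within-sex SD, 6 animals), ranked 3 of all genes, while its other probe was above background on no array. For Elk1 the values were 9.28 and −2.20. The other probe of Pbld1, which stood at 8.81, and that of Pigr, which stood at 8.37, were likewise above background on no array. Of the 30 brightest genes, 22 had a further probe, and in 15 of those even the brightest further probe, measured above background or not, lay more than 4 log2 units lower. Gapdh, at 8.39, had its next probe, also with a shared stretch, at 7.10 and one without at 5.94.

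Without probes that hold a shared stretch, an alternative chosen after the data were seen, 11 of those 30 genes stayed among the 30 brightest. The list then included Cpe at 8.83, an enzyme that trims neuropeptides, Ppia at 8.72, a protein-folding enzyme, and Sparcl1 at 8.48, an astrocyte-secreted synapse organiser. Aldoc at 8.33 encodes the aldolase of astrocytes. Cox6a1 at 8.90 and Cox8a at 8.30 are subunits of cytochrome c oxidase, Actb at 8.26 and Actg1 at 8.26 are actins, and Rps14 at 7.99 is a ribosomal protein. Haemoglobin alpha (Hba-a2, 8.35) was among them as well. Exosc2 at 9.22, Milr1 at 9.04 and Zfp628 at 8.95 also remained, and the other probe of Zfp628 averaged −0.36.

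**Figure D1:**
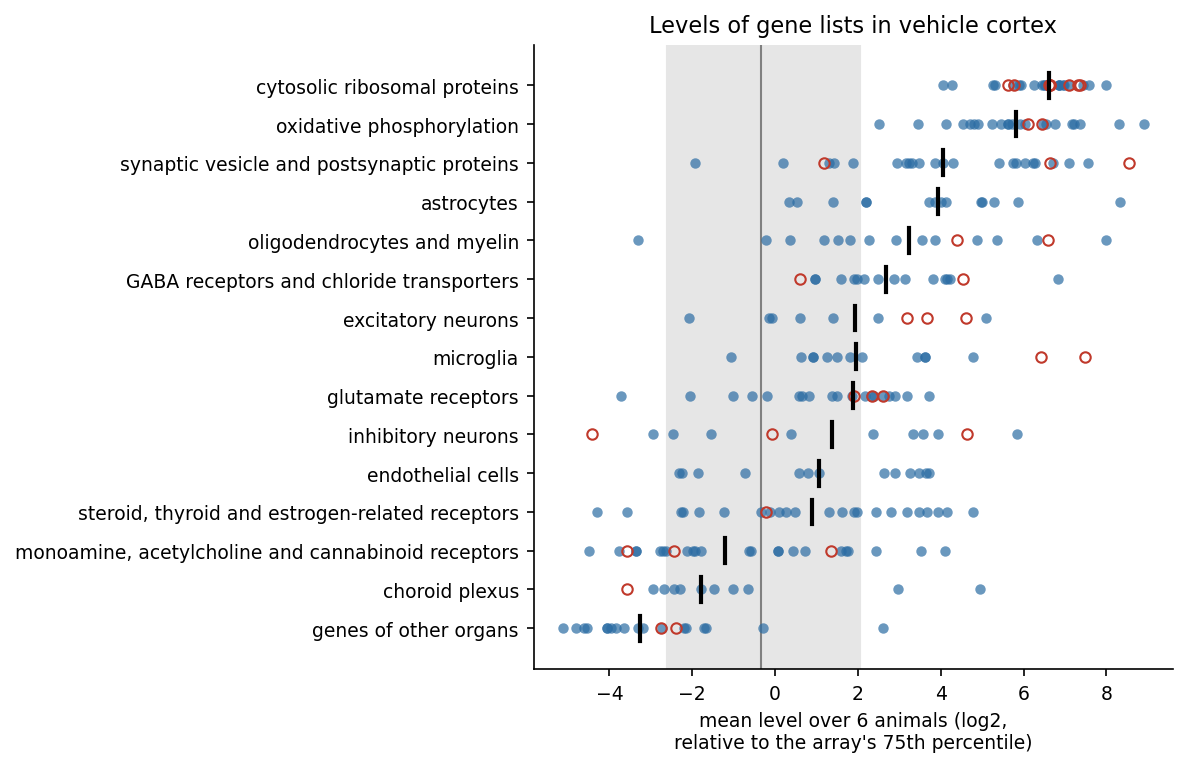
Mean level over the 6 vehicle animals of every measured member of 15 gene lists (1 point a gene, red open circles for probes with a shared stretch, black bars for list medians). The grey band and line give the middle 50% and the median of all genes; ribosomal proteins have the highest list median, at 6.62, and genes of other organs the lowest, at −3.26.

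By list medians, the genes of protein synthesis and respiration gave the brightest probes. The 28 cytosolic ribosomal proteins had a median level of 6.62, at the 98.6th percentile of all genes kept, from Rpl5 at 4.07 to Rps14. The 24 subunits of oxidative phosphorylation had a median of 5.82 and 16 housekeeping genes 5.17. Heat shock and unfolded protein genes followed with 4.50 over 18 members, and synaptic vesicle and postsynaptic proteins with 4.07 over 25. Among the synaptic proteins were Syt1, the calcium sensor of vesicle release, at 7.55, Rab3a at 7.10, Snap25, a SNARE of vesicle fusion, at 6.63, and Syn1, which tethers vesicles, at 6.27.

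Every one of the 10 markers of excitatory neurons was well above background on all 6 arrays, with a median of 1.94. Nrgn, a postsynaptic calmodulin-binding protein, stood at 5.10, Camk2a at 3.67 on a probe with a shared stretch, and the vesicular glutamate transporter Slc17a7 at 2.47. All 10 upper-layer markers and all 13 deep-layer markers were also measured, with medians of 1.76 and 1.62, and included Lmo4 at 5.95, Cux2 at 2.67, Etv1 at 4.27 and Fezf2 at 0.60. The 12 inhibitory neuron genes had a median of 1.38, from the vesicular GABA transporter Slc32a1 at 5.85, Gad1 at 3.57 and Gad2 at 3.32 down to Adarb2 at −4.42. Among markers of interneuron classes, Cck stood at 7.67, Sst at 4.89, Pvalb at 3.77, Npy at 3.48 and Vip at 1.45, while Chodl was well above background on 1 array only. Markers of cortical neurons were thus present in every animal.

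The glial and vascular lists were measured in full. The 14 astrocyte markers had a median of 3.94, with glutamine synthetase (Glul) at 5.87, the glutamate transporter Slc1a2 at 4.98 and Gfap at 1.40. The median was 3.24 for 16 myelin genes, 0.31 for 11 genes of oligodendrocyte precursors, 1.95 for 14 microglial genes, 1.05 for 13 endothelial genes and 0.36 for 11 mural cell genes. Microglial Csf1r, the receptor that keeps these cells alive, stood at 4.79, Cx3cr1 at 3.42 and P2ry12 at 0.91. The brighter microglial values of Siglech, 7.49, and Itgam, 6.43, came from probes with a shared stretch.

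Genes of other organs marked the lower end. Of 26 such genes, 20 were kept, with a median of −3.26, and 5 were well above background on no control array: Alb of liver, Ckm of muscle, Umod of kidney, Prl of the pituitary and Prm1 of sperm. Apoa2, a plasma lipoprotein made in liver, stood apart at 2.61 with an SD of 0.10. Over all probes, 13772 of 55672 were well above background on no control array.

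Receptors for fast transmitters were mostly kept. All 22 glutamate receptor genes were measured, with a median of 1.89, led by Grm5 at 3.71, Grik5 at 3.19 and the AMPA receptor subunit Gria1 at 2.89. All 16 genes of GABA receptors and chloride transporters were measured too, with a median of 2.67. Slc12a5 (KCC2), the transporter that makes GABA inhibitory as neurons mature, stood at 6.82, and Slc12a2 (NKCC1), which loads chloride, at 3.14. Receptors for monoamines, acetylcholine and cannabinoids had a median of −1.21 over 26 of 28 members, from the cannabinoid receptor Cnr1 at 4.10 and Chrm1 at 2.43 to Htr5a at −4.48. Drd3 and Htr1b were each well above background on 4 arrays.

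Nuclear receptors for steroids and related ligands are described because bisphenol A is known as a ligand of estrogen and estrogen-related receptors. Of 26 genes of this list, 24 were kept, with a median level of 0.90 and a median SD of 0.15. The thyroid hormone receptor Thra stood at 4.78 ± 0.09, the glucocorticoid receptor Nr3c1 at 3.92 ± 0.15 and the estrogen-related receptor Esrra at 3.66 ± 0.08. Esrrg was at −0.23 ± 0.06 and Esrrb at −1.24 ± 0.21.

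The estrogen receptors were read by few probes. Esr1 (estrogen receptor alpha) was read by 1 measured probe, at −3.84, −4.44 and −4.67 in the males and −4.31, −4.03 and −4.55 in the females, and its 2 other probes were above background on no array. Esr2 (estrogen receptor beta) had 1 probe, at 3.09, 3.20 and 3.37 in the males and 3.23, 3.00 and 3.23 in the females. Both genes overlapped between the sexes. The progesterone receptor Pgr averaged −0.34 ± 0.23, the membrane estrogen receptor Gper1 −1.85 ± 0.19 and the mineralocorticoid receptor Nr3c2 −2.28 ± 0.23. Other receptors of the list stood at 4.14 (Rxrb), 2.43 (Rxrg), 1.61 (Nr1i3), 0.49 (Ahr), 0.27 (Thrb), 0.09 (Pparg), −0.13 (Ppara) and −3.58 (Rxra). Of the 24 kept genes, 1 was read by a probe with a shared stretch, and some are not reported here. Aromatase (Cyp19a1), which makes estradiol from androgens, was above background on 5 arrays at a mean of −4.88, and the xenobiotic receptor Nr1i2 on none.

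Spread between animals was small for bright probes. The pooled within-sex SD had a median of 0.13 over all genes, and with the genes split by level into 10 equal groups it fell from 0.28 in the dimmest group to 0.07 in the brightest. Probes printed 10 times on each array gave the spread of repeated spots. Each animal had 1 array, so the spread between animals also holds differences between arrays, such as labelling. Over 305 such probes the median SD of the 10 spots within an array was 0.07. The median SD between animals was 0.11 for 1 spot and 0.10 for the means of the spots. The SD of the means was above the SD of single spots in 202 probes. A mean of 10 spots holds less spot noise than 1 spot, so this count is not the share of probes that vary between animals. Because dim probes vary more, a gene was called variable where its SD was in the top 10% of its own group, which by construction was 2380 genes or 10.0%. Among genes with at least 2 measured probes, deviations from the sex means correlated between the 2 brightest probes above 0.5 over the 6 animals for 3341 of 6685 genes, and for 403 of the 638 variable ones.

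The lists fell into quiet and variable ones. None of the 28 ribosomal proteins, 24 respiratory subunits, 16 housekeeping genes, 20 genes of cholesterol synthesis or 18 genes of DNA methylation and chromatin reading was called variable, against 10.0% of all genes. Ribosomal Rpl6 had an SD of 0.01 around 6.52. Dnmt3a, the main de novo DNA methyltransferase, stood at 3.96 ± 0.06. Glutamate receptors (2 of 22 variable), synaptic proteins (2 of 25), endothelial genes (1 of 13) and astrocyte genes (2 of 14) were close to the background share. So were the steroid and related receptors, of which 2 of 24 (8.33%), Rxrg and Nr1i3, were called variable. In 9 of 40 lists more than 50% of the measured members were called variable. Those lists were choroid plexus, olfactory bulb and immature neurons, immediate early genes, striatal neurons, meninges and fibroblasts, myelin, inhibitory neurons, erythrocytes and glucocorticoid-responsive genes. All lists were chosen with earlier results of these data known, so these shares describe the lists and test nothing.

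**Figure D2:**
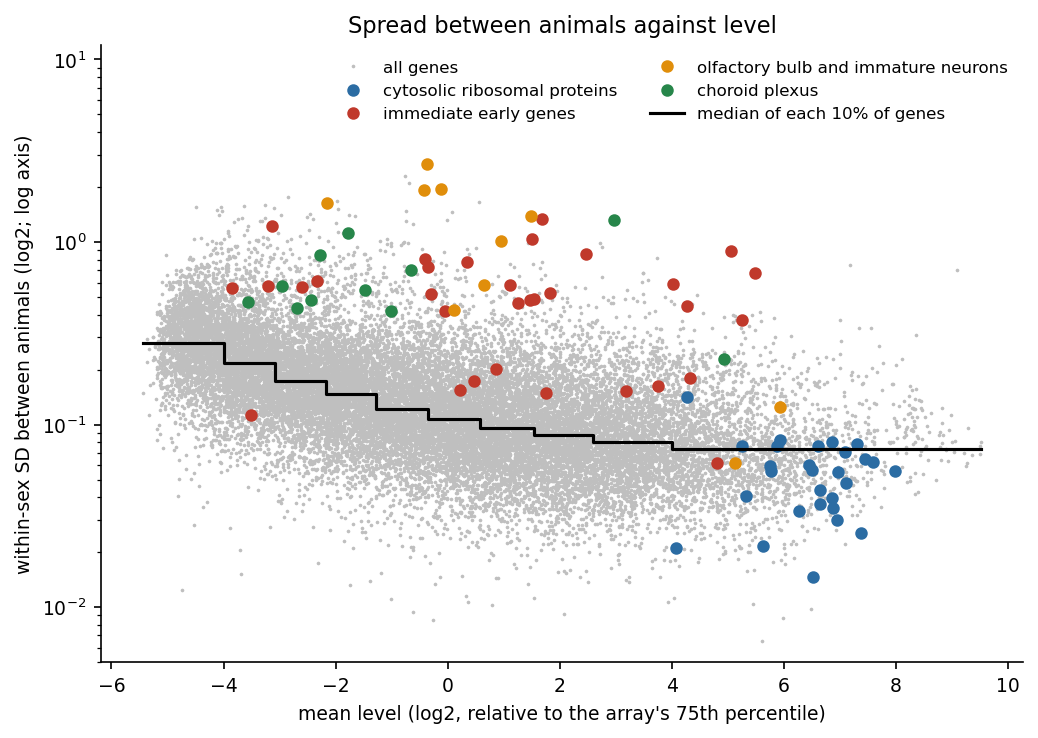
Within-sex SD between animals (log axis) against mean level for all 23789 genes, with 4 lists in colour and the median of each 10% of the genes by level as a stepped line. Most immediate early, choroid plexus and olfactory bulb genes lie far above the line, and no ribosomal protein was called variable.

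**Figure D3:**
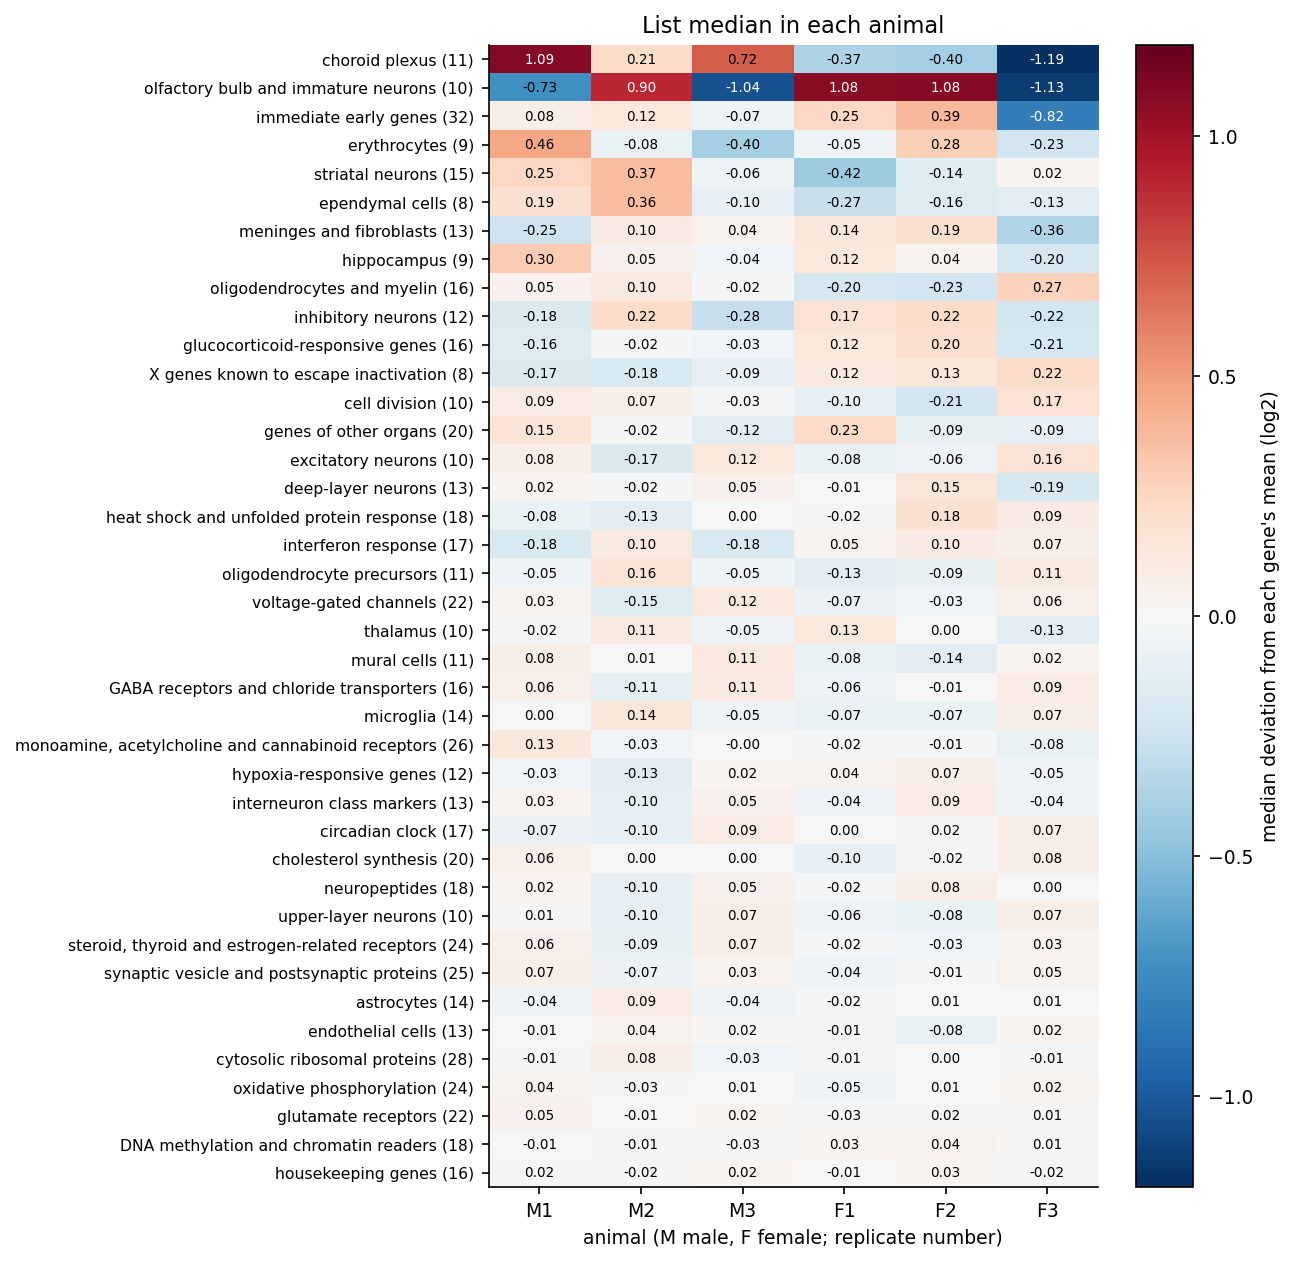
Median, over the measured members of each list (number in brackets), of the deviation of each animal from the gene's mean over the 6 animals, in log2 units. Choroid plexus runs from 1.09 in male 1 to −1.19 in female 3, the olfactory bulb list from 1.08 in females 1 and 2 to −1.13 in female 3, and housekeeping genes stay within 0.03 of 0.

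Of all lists, that of the olfactory bulb and immature neurons had the highest median SD. Neuroblasts made beside the ventricle migrate into the bulb throughout life, where they become dopaminergic and other interneurons. Of 11 genes on this list 10 were measured and 8 were called variable, with a median SD of 1.2. The list median deviated by −0.73, 0.90 and −1.04 in males 1 to 3 and by 1.08, 1.08 and −1.13 in females 1 to 3. Male 2 and females 1 and 2 were thus high, and male 1, male 3 and female 3 low, so both sexes held high and low animals.

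Sp8, a zinc-finger factor of bulb interneurons, was at −1.84, 1.45 and −1.88 in the males and 1.65, 1.70 and −1.80 in the females. Doc2g, a gene of mitral and tufted cells, was at −2.18, 1.09 and −2.16 in the males and at 1.37, 1.37 and −2.07 in the females. Th, tyrosine hydroxylase of dopamine synthesis, gave 0.36, 2.45 and 0.22 in males against 2.79, 2.87 and 0.19 in females. In all 3 the same animals were high, and the gap between high and low animals exceeded the differences within either set. Cdhr1, a photoreceptor and olfactory cadherin, had the largest SD among the 10 measured members, 2.66, with −2.32, 1.64 and −2.0 in males and 1.91, 1.95 and −3.36 in females. Eomes, a factor of mitral cells and of intermediate progenitors, was above background on 5 arrays and gave −3.83, 0.07 and −5.33 in males and 0.51, 0.61 and −5.80 in females. Dcx, a microtubule protein of migrating neuroblasts, moved less, from 0.06 in female 3 to 1.24 in female 1, and did so on 3 probes.

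The other members placed these values. Stmn2 (5.93 ± 0.13) and Tubb3 (5.12 ± 0.06), which all young and mature neurons express, were not called variable. The second probe of Sp8 averaged −2.01 with an SD of 0.19, against 1.96 for the first. The second was lowest in male 3 and female 3 and ranged only from −2.26 to −1.87. The first was about as low in male 1 (−1.84) as in male 3 (−1.88) and female 3 (−1.80). Both probes of Nmb and all 3 of Dcx gave the pattern, as did the second probe of Eomes, above background on 3 arrays. Calb2 (calretinin), listed as an interneuron class marker, followed it with −2.42, −0.98 and −3.63 in males and −0.58, −0.60 and −3.51 in females. Of the 11894 genes above the median level, 555 correlated with Doc2g above 0.9 in deviations from the sex means over the 6 animals. How many would do so by chance was not worked out. Those most like it, chosen after its values were seen, included Dlx1, Sp8, Map3k1, Pbx3, Pcp4l1 and Pcbp3. Without female 1 again 8 of 10 members were called variable.

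Inhibitory neuron genes moved with these. Of 12 members 8 were called variable, and the list median was −0.18, 0.22 and −0.28 in males and 0.17, 0.22 and −0.22 in females. Transcription factors of the interneuron lineage had the largest SDs. Dlx2 stood at −0.51, 1.09 and −0.21 in males and 1.14, 1.16 and −0.33 in females, and Dlx1, whose probe holds a shared stretch, Dlx5 and Dlx6 had SDs of 0.88, 0.67 and 0.53. The enzymes Gad1 and Gad2 had SDs of 0.23 and 0.22, and Erbb4, a receptor of cortical interneurons, an SD of 0.07. Of the interneuron class markers, Pvalb (3.47 in male 2, 3.56 and 3.54 in females 1 and 2, 3.92 to 4.12 in the others) ran the other way. The part that dissected tissue plays in these values was not tested.

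Immediate early genes, which neurons switch on within minutes of activity and which code mostly for transcription factors, were low in a single animal. All 32 were measured, 24 were called variable, and the list median was 0.08, 0.12 and −0.07 in the males, 0.25 and 0.39 in females 1 and 2 and −0.82 in female 3. In female 3 only 4 of the 32 lay above their own mean. Without female 3, 11 of 32 were called variable, so most of these calls rest on that animal.

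Arc, a synaptic protein that removes AMPA receptors, was at 5.45, 5.43 and 5.02 in the males and 5.48, 5.59 and 3.38 in the females. Fos gave 1.80, 2.04 and 1.31 in the males and 2.13, 2.13 and −0.33 in the females. Egr2 read 1.83, 1.99 and 1.59 in males and 2.63, 2.68 and −0.60 in females. Npas4, a factor induced by calcium entry, stood at 2.77, 3.28 and 2.35 in the males and 2.64, 2.91 and 0.85 in the females. Nr4a1, an orphan nuclear receptor, reached 5.74, 5.81 and 5.47 against 5.84, 5.86 and 4.22. In each of these genes female 3 was the lowest animal and her distance to the next animal exceeded the range of the other 5. Egr1 was at 4.68 in female 3 and between 5.18 and 5.67 in the rest.

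Some members differed from that pattern. Atf3 (SD 1.23), Fosl2 (0.53), Fosb (0.78) and Maff (0.57) were high in females 1 and 2, with Atf3 at −1.59 and −1.62 there and between −4.41 and −3.02 in the other 4. Jund, Jun, Homer1, Bdnf, Nptx2, Ier5, Ppp1r15a and Egr3 were not called variable. Bdnf, a secreted growth factor induced later than the factors above, was at 0.88 in female 3 and between 0.47 and 0.98 in the others. Likeness to Fos was the correlation of deviations from the sex means over the 6 animals, which 1 low animal can carry. The genes most like Fos were, in order, Ipmk, Gadd45b, Tiparp, Nab2, Cpq, Dusp16, Nr4a1, Nop58, Tob2 and Paf1, all at 0.99 or more. Some of them moved little, such as Paf1 with an SD of 0.03. Nab2, a corepressor of the Egr factors, was at 2.00 in female 3 and between 2.46 and 3.05 elsewhere. Of 11893 genes above the median level, 347 correlated with Fos above 0.9, and how many would do so by chance was not worked out.

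Promoters are shown for 3 of the genes that were low together in female 3, because many activity genes are read through the cyclic AMP response element. The letters TGACGTCA (full element) and TGACG (its 5-base core, which also lies inside the full element) were searched on both strands in the 250 bases before the start in RefSeq's promoter table (GRCm38.p6), with capitals marking TGACG or its reverse complement.
Fos: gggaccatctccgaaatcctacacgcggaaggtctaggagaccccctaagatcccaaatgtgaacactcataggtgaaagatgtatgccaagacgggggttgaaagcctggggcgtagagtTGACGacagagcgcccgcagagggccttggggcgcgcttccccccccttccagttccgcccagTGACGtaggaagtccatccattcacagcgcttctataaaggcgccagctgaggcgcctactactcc
Nr4a1: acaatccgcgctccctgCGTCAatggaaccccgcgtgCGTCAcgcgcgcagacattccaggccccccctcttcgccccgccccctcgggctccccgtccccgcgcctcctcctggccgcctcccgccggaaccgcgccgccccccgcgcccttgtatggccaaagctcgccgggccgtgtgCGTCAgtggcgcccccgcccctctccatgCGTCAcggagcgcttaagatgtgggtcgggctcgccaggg
Npas4: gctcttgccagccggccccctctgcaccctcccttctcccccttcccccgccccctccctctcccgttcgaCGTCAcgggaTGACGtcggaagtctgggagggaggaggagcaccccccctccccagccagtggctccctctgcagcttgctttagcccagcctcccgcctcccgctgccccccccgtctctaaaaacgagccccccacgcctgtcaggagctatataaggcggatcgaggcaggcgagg
These lie at chr12:85473640-85473889 (plus strand), chr15:101266596-101266845 (plus) and chr19:4989972-4990221 (minus). Of the 32 immediate early genes, 25 matched the table. TGACG was present in 16 of the 25 (64%) and in 17.9% of 27025 promoters, and TGACGTCA in 3 of the 25 (12%) and in 1.62% of all. These shares cover all matched members, low in female 3 or not. Egr2 and Gadd45b, also lowest in female 3, had no TGACG in their windows. Of members not called variable, Homer1 and Ppp1r15a held it, and Jund, Jun, Bdnf and Ier5 did not. A link between these letters and the levels in female 3 was not tested. The CArG box was in none of the 25 windows and in 1.40% of all, which says only that its letters are not in these windows.

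**Figure D4:**
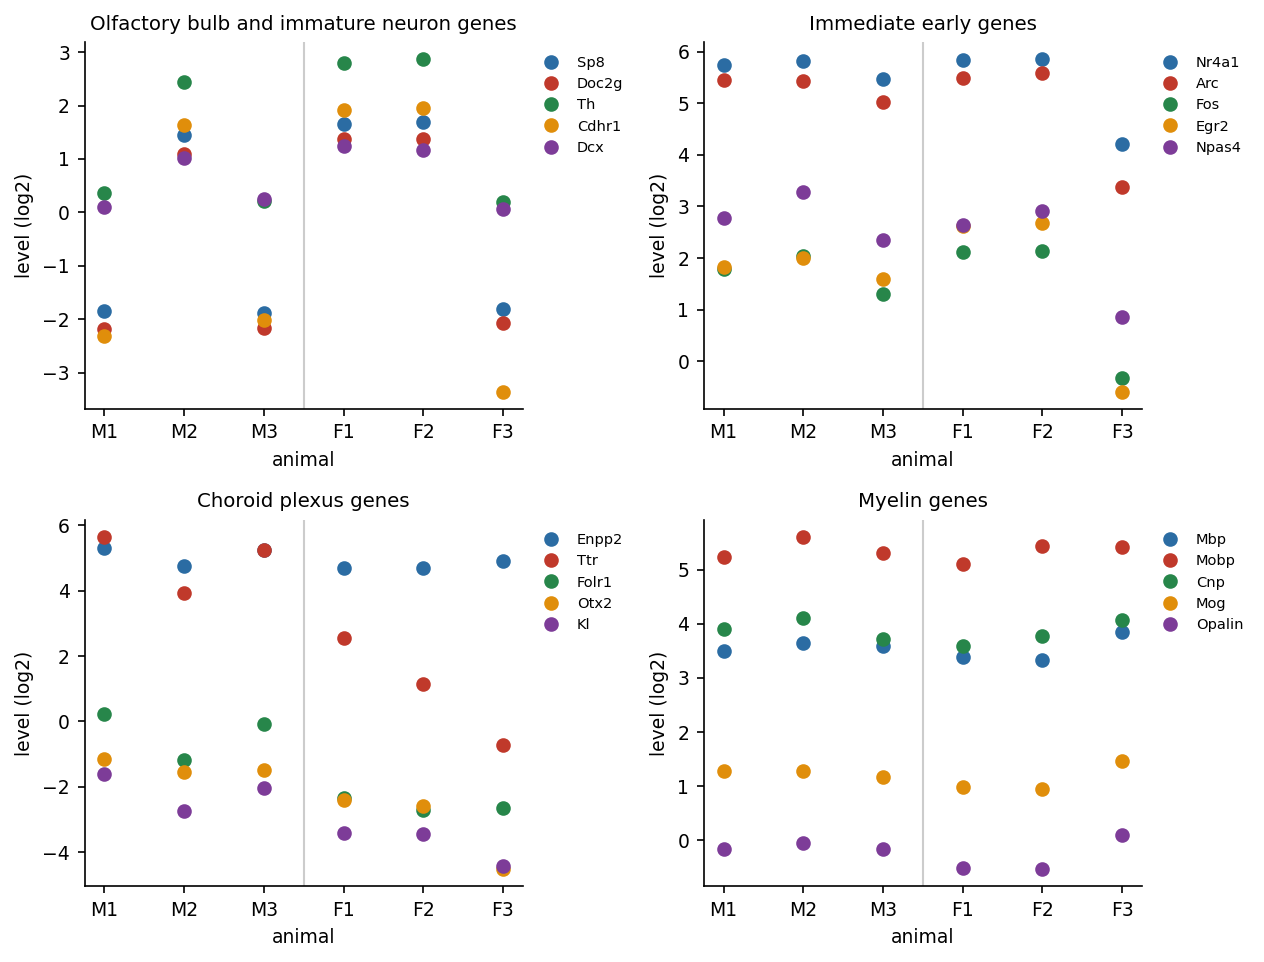
Levels (log2, relative to the array's 75th percentile) of 5 genes from each of 4 lists in the 6 vehicle animals, 1 point an animal, males M1 to M3 and females F1 to F3. Sp8, Doc2g and Cdhr1 are high in M2, F1 and F2, Arc and Fos are low in F3, and Ttr is highest in M1 and lowest in F3.

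Glucocorticoid-responsive genes were called variable in 10 of 16. Their list median was −0.16, −0.02 and −0.03 in males and 0.12, 0.20 and −0.21 in females, and without female 3 the count was 6 of 16. Per1, a clock gene that both activity and glucocorticoids induce, ran from 3.63 in female 3 to 4.74 in female 2. Ddit4, a stress-induced inhibitor of mTOR, was at 4.47, 4.90 and 4.08 in males and 4.69, 5.00 and 4.19 in females. The clock genes Dbp (4.80 ± 0.16), Clock (−0.06 ± 0.08), Arntl (0.81 ± 0.13) and Nr1d1 (−0.34 ± 0.15) were not called variable. In all, 5 of 17 clock genes were, Per1 among them.

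Choroid plexus genes were higher in each male than in each female for most members. The choroid plexus makes cerebrospinal fluid inside the ventricles and is not part of the cortex. Of 13 genes 11 were measured and all 11 were called variable within the sexes, or 7 of 11 without male 2. The list median was 1.09, 0.21 and 0.72 in males and −0.37, −0.40 and −1.19 in females. The sexes did not overlap in 8 of 11 members, male higher in each, against 2.95% of all genes with males higher and 2.35% with females higher.

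Ttr (transthyretin), the thyroid hormone carrier that is the plexus' main secreted protein, was at 5.66, 3.93 and 5.25 in males and 2.54, 1.14 and −0.72 in females. Folr1, its folate receptor, gave 0.21, −1.2 and −0.09 against −2.34, −2.73 and −2.66. Kl, the anti-ageing factor klotho, read −1.62, −2.74 and −2.05 against −3.43, −3.44 and −4.44. Otx2, a homeobox factor of the plexus, stood at −1.16, −1.54 and −1.49 against −2.42, −2.58 and −4.53. The female minus male difference was −3.96 (SE 0.86) for Ttr and −2.22 (SE 0.36) for Folr1, and neither passed limma's test (adjusted p = 0.999993 for both). Enpp2 (autotaxin), which oligodendrocytes also make, was at 4.94 with its sexes overlapping. The list's median difference was −1.27 with no member higher in females, and stayed between −1.45 and −1.03 when each animal was left out in turn. Ependymal genes, of the ventricle's lining, had a median difference of −0.31, with 0 of 8 higher in females. The part of dissection in these values was not tested.

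Myelin genes stood above their means in female 3. The list median was 0.05, 0.10 and −0.02 in males and −0.20, −0.23 and 0.27 in females, all 16 members lay above their mean in female 3, and 11 were called variable. Mbp, a protein that compacts the sheath, gave 3.49, 3.64 and 3.58 in males and 3.38, 3.33 and 3.85 in females on its brightest probe. Mog, at the surface of the sheath, was at 1.28, 1.27 and 1.17 in males and 0.98, 0.95 and 1.46 in females. Without female 3 only 4 of 16 were called variable. The second probe of Mbp, at 3.42, 3.20 and 3.27 in males and 3.58, 3.64 and 3.57 in females, did not share the pattern of the first. Of the 4 members with a second measured probe, 2 had a correlation between the probes above 0.5, and the median was 0.02. Of the 11 genes of oligodendrocyte precursors 1 was called variable, Olig2.

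Striatal markers were called variable in 11 of 15 and were lower in females for every member by the means. The list median was 0.25, 0.37 and −0.06 in males and −0.42, −0.14 and 0.02 in females. Adora2a, the adenosine receptor of indirect-pathway neurons, read by a probe with a shared stretch, gave 1.70, 1.70 and 0.68 in males and 0.26, 0.73 and 1.16 in females. Ppp1r1b (DARPP-32) was at 3.71, 3.72 and 3.17 in males and 2.85, 3.02 and 3.26 in females. The dopamine receptor Drd1 (−0.58 ± 0.15) was not called variable. The 5 members with a second measured probe each had a correlation between the probes above 0.5. The sexes overlapped in 13 of 15 members, while over all genes males stood wholly above females in 2.95% and females above males in 2.35%. Without male 3 the count of variable members was 7 of 15.

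Blood and meningeal genes varied too. Hba-a2 stood at 8.69, 8.36 and 7.99 in males and 8.30, 8.63 and 8.13 in females. Alas2, the first enzyme of haem synthesis in red cells, gave 0.80, 0.32 and −0.17 in males and 0.31, 0.64 and −0.04 in females, the same order within each sex. All 9 measured erythrocyte genes lay above their mean in male 1. The meningeal list was called variable in 9 of 13 members and was lowest in male 1 (−0.25) and female 3 (−0.36). Col1a1, a collagen of fibroblasts whose probe holds a shared stretch, was at 1.04, 2.15 and 1.36 in males and 1.42, 1.62 and 0.98 in females.

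Several of the widest spreads above the median level lay outside these lists. Of the 20 current-symbol genes with the largest SD, Trh (1.46), a releasing hormone, Nmb (1.10), a bombesin-like peptide, Zic1 (0.94), Fabp7 (0.81), a fatty acid carrier of radial glia, and Tubb6 (0.79) were higher in male 2 and females 1 and 2 than in male 3 and female 3. Pcp2 (1.32), a Purkinje cell protein, was at 2.5 in male 1 and between −1.12 and 0.16 elsewhere. Pde5a, a cyclic GMP phosphodiesterase, was at 1.48, 1.53 and −2.32 in males and 1.22, 0.00 and 1.49 in females, and its other probe was above background on 1 array. Slc49a4 and Olfr1500 gave SDs of 0.92 and 0.93 on the only probe each has, which for Olfr1500 holds a shared stretch.

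Sex was the only grouping of the vehicle animals that could be tested by label, and no gene above background on all 6 arrays passed the test of it. Of 23789 genes 0 (0.00%) had an adjusted p under 0.05 by limma, and 566 had an unadjusted p under 0.05, of which 238 were higher in females. The median standard error of a difference was 0.10. Females stood wholly above males in 560 genes (2.35%) and males above females in 701 (2.95%). Littermates were treated as separate animals.

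The genes that are made by 1 sex fall outside that filter. They are described without a test, because each is measured only through the sex in which it is high. Xist, the RNA that coats the inactive X, was at 0.93 ± 0.05 (SD, n = 3) in females and not well above background in males, at least 92.6-fold higher. A second Xist probe, also not above background in males, was at −0.55 ± 0.13 in females, with a bound of 33.3-fold. A probe filed as XIST had a female minus male difference of 11.5, against 8.81 for the first, so level and bound depend on the probe. The Y gene Eif2s3y, a translation factor subunit, stood at 2.13 ± 0.07 in males and was at least 237-fold higher than in females. For Ddx3y, a helicase, the male level was 0.92 ± 0.09 and the bound 103-fold, and for Uty, −3.42 ± 0.09 and 5.07-fold. Kdm5d, a histone demethylase, averaged −3.88 in males and was above background in 1 female. Sry, Usp9y, Zfy1 and Zfy2 were not above background in any male, while Sry was called above background in 2 females and Zfy2 in 1, at levels that overlapped between the sexes. Each bound sets the brighter sex's mean against the lowest signal called above background.

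X genes that escape inactivation were slightly higher in females, as a list. Of 8 measured genes 7 were higher in females, the median difference was 0.27, and in 6 the sexes did not overlap. Over all genes, females stood wholly above males in 2.35% and males above females in 2.95%. Eif2s3x was at 0.02, 0.02 and −0.05 in males and 0.44, 0.45 and 0.40 in females, a difference of 0.44 (SE 0.06). The histone demethylase Kdm6a stood at −1.64, −1.57 and −1.54 in males and −1.30, −1.30 and −1.09 in females, and Kdm5c at 1.81 ± 0.08 and 2.10 ± 0.02. None of these differences passed after adjustment. A second measured probe of Eif2s3x ran the other way, at 1.06 ± 0.02 in males and −1.41 ± 0.07 in females, and both Kdm5c probes and all 3 Ddx3x probes were higher in females.

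**Figure D5:**
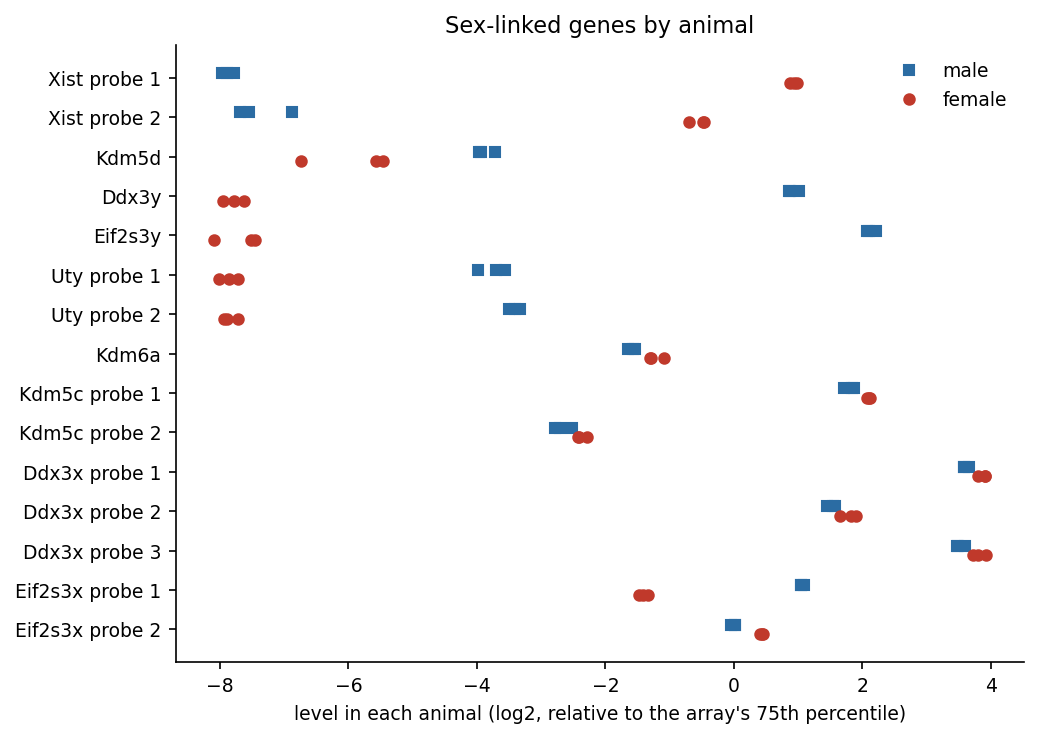
Level in each vehicle animal (blue squares males, red circles females) for the probes of 9 sex-linked genes that were above background in all animals of at least 1 sex. Xist is seen in females, Y genes in males, and the escape genes differ by less than 1 unit apart from probe 1 of Eif2s3x.

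Outside the sex chromosomes, Folr1 was among the genes of smallest p-value, as was Wfdc2, a secreted protease-inhibitor-like protein, at −2.88 in males and −4.54 in females on average (difference −1.67, SE 0.28). Slc39a4, a zinc transporter, was higher in males, at −2.15, −2.38 and −2.51 against −3.23, −3.25 and −3.46 in females (difference −0.96, SE 0.12). Oprk1, the kappa opioid receptor, averaged −1.73 in males and −2.22 in females. Dct, an enzyme of melanin synthesis, averaged −2.09 in males and −1.25 in females, and its second probe went the same way. Sik2, a kinase, averaged −0.18 in males and 0.30 in females. None passed the adjustment. Interferon-response genes had higher means in females for 16 of 17 members, with a median difference of 0.15, but the sexes overlapped in all except 3, and the list median of male 2 (0.10) was at or above those of the females (0.05, 0.10 and 0.07). Heat shock and unfolded protein genes had higher means in females for 16 of 18, with 0.19, the sexes overlapped in all except 4, and female 1 (−0.02) was below male 3 (0.00) by list median. For comparison with both lists, females stood wholly above males in 2.35% of all genes, and males above females in 2.95%.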

How the data were processed

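Total RNA from frozen cortex was labelled with Cy3 from a poly-dT primer and read on 1-colour Agilent mouse arrays of 60-base probes, per the labels' protocols. The authors deposited scanner files whose intensity values are the processed signals of Agilent Feature Extraction 10.7.3.1, background-subtracted and detrended within each array and not scaled between arrays, per the file headers. The mean and local background intensity of the same deposited files served 1 alternative. The authors' deposited table of log2 values, with scale and centring not stated, served another (column medians 0, 0.01 and 0.01 in males and 0, −0.03 and 0.02 in females), and which step set the column of female 1 apart stays unknown.

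Here control spots and outlier-flagged spots were left out, log2 signals were scaled to each array's 75th percentile, spots of a probe were averaged, and a probe counted if well above background on all 6 control arrays. A gene is its probe of highest mean. Of 55681 probe names 31239 (56.1%) matched a reference symbol, and a current symbol is such a match that does not start with LOC. Spread is the pooled within-sex SD (4 degrees of freedom). Sexes were compared with limma 3.58.1 in R 4.3.3 (lmFit, eBayes, two-sided, Benjamini-Hochberg, 0.05), tested on simulated data. Tables and figures were made in Python 3.11.15 with pandas 2.3.3 and matplotlib 3.10.9. Shared stretches are 12 bases found in probes of at least 8 genes. The precision is limited by the number of arrays, 3 a sex. The p-values set the sex difference against the spread within each sex, which also holds differences between arrays. Littermates entered this test as separate animals. The members and the 41 gene lists were chosen with earlier results of these data known. Named genes are the 30 brightest, list members, the 20 of largest SD above the median level, the 10 of smallest p in each direction, all sex-linked genes and steroid receptors of the lists, and the 10 most like Fos. Genes like Doc2g were chosen after the values were seen. Alternatives were other normalisations, filters, gene summaries, each animal left out, a replicate block, other spread models and, chosen after seeing the data, no shared-stretch probes. Some genes these rules name are not reported here.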

Additional observations from a re-analysis of the deposited data

How the results depend on the processing

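Ranks held under most settings. Of the 30 brightest genes 28 to 30 remained under other normalisations, background correction and filters and without any 1 animal (29 to 30), but 12 with the mean of a gene's probes and 11 without shared-stretch probes. The median SD, 0.127, was 0.0951 with normexp background correction, 0.171 with no filter on dim probes, and between 0.119 and 0.128 with each animal left out. With the replicate number as a block it was 0.107, on fewer degrees of freedom, and 1481 of 2380 variable genes were shared. The sex test gave 0 genes in the replicate block fit (790 at an unadjusted p under 0.05), in every fit that left out an animal, and with array weights, a trended prior, all 12 arrays or the authors' value table. It gave 5 with no filter and 5 with the filter by sex, 4 of them Xist, Eif2s3y, Ddx3y and Uty in both, which enter only through the sex where they are high. It gave 1 with the mean of a gene's probes, Eif2s3x, male higher (female minus male −1.02), opposite to the 0.44 of its brightest probe. Same-numbered males and females correlated in their deviations at −0.01, 0.41 and 0.19, and differently numbered ones between −0.45 and 0.30. So few values cannot decide whether the numbers mark litters. The sample names do not give litters, and the numbers were not taken as pairs. Lists with over 50% variable members numbered 9, between 5 and 10 with an animal left out, the lowest without female 3. Without female 1 the count was 9 and the median SD 0.128. Probes near background limit what can be seen of the rarest RNAs.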

Other observations

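The 13 measured probes that the files place on the mitochondrial chromosome included some of the brightest on the array, and 12 of them had SDs between 0.05 and 0.12. The exception was the COX1 probe, at 9.5, 9.51 and 7.83 in males and 9.28, 9.03 and 9.44 in females, an SD of 0.70. Male 3 was at 8.98 on the next brightest mitochondrial probe, where the others lay between 8.82 and 9.15.

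Oxytocin and vasopressin, hormones of the hypothalamus on the list for other organs, were high in the same animal. Oxt was at −3.23, −2.46 and −2.28 in males and −1.68, 0.52 and −3.77 in females, and Avp at −4.24, −4.22 and −4.06 in males and −2.80, −1.74 and −4.79 in females. Pomc, of the arcuate nucleus and pituitary, did not follow, with −0.30 ± 0.15. Neuropeptides of the cortex varied less, with Sst at 4.89 ± 0.14, Vip at 1.45 ± 0.14 and Crh, a stress peptide, at 1.28 ± 0.10.

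Mid1, an X gene on the list of genes that escape inactivation, had the largest SD of that list, 0.80, with −3.18, −2.09 and −1.14 in males and −2.73, −2.95 and −2.02 in females, and a second probe gave a similar order.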
